A study of Homo sapiens with 8 samples.

Results

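The genes described here are those of sterol and fatty acid synthesis that are known targets of the sterol regulatory element-binding proteins (SREBPs), with the genes that control these proteins. They were picked from a list of symbols for their known function. Earlier results of these data were known by then, so their shares set beside those of all genes are descriptive. Of the 33 listed genes, 32 had a row among the 55679 genes of the count table. ACACA was not analysed here. They fall into a sterol branch of 19 genes, a fatty acid branch of 6 genes, 5 regulators and 2 genes linked to the liver X receptor (LXR). The libraries came from MDA-MB468 and BT549, human triple-negative breast cancer (TNBC) cell lines that are sensitive to Acetalax (oxyphenisatin acetate), a former laxative, and from the chronic exposure (CE) derivative of each. CE cells had been passaged in rising Acetalax, were taken at 40 μmol/L as resistant cells, and spent 2 weeks drug-free before use. Parental and CE cells of each line were left as control or given 1 μmol/L Acetalax over 6 hours, and polyA RNA was sequenced in 8 libraries, 1 for each condition. There is 1 CE derivative of each line, so a difference between CE and parental cells is that of 1 culture history per line.

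Cells sense sterol at the endoplasmic reticulum. There the escort protein SCAP and its INSIG partners hold the SREBPs while sterol is plentiful. When sterol falls, SCAP carries them to the Golgi apparatus, where they are cut and freed to enter the nucleus. SREBP2, from SREBF2, is best known for switching on the cholesterol pathway and SREBP1, from SREBF1, for fatty acid genes. LXR is a nuclear receptor activated by oxysterols, and SREBF1, ABCA1 and MYLIP are among its known target genes.

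The totals of the libraries ran from 42261122 to 54241728 counts. MDA-MB468 libraries carried epithelial RNA, with EPCAM at 409 CPM (counts scaled to a fixed library size) and VIM at 4.63 CPM in the parental control. BT549 parental control cells carried mesenchymal RNA, with VIM at 1327 CPM and EPCAM at 0.189 CPM. The BT549 CE control had VIM at 864 CPM and EPCAM at 0.037 CPM, but other markers shifted. From parental to CE control, the epithelial markers KRT8, KRT18 and CDH1 went from 1.25 to 34.4, 6.67 to 47.9 and 0.237 to 0.959 CPM. The mesenchymal markers CDH2 and FN1 went from 223 to 110 and from 1629 to 593 CPM. Of the receptors that define TNBC by their low level, PGR had 0 counts in 6 libraries and 34 and 4 counts in the BT549 CE control and Acetalax-treated libraries, and ESR1 did not pass 5.15 CPM in any library. ERBB2 lay between 3.99 and 9.22 FPKM, a count scaled to library size and exon length. Marker levels are scaled by library totals, and all levels below by TMM, the trimmed mean scaling of edgeR.

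Promoter stretches of 5 genes that passed the Acetalax test, and of SREBF2, which did not pass it but held the sterol element, are shown first, because SREBPs are known to act through sterol regulatory elements that often lie near a CCAAT box, the site of the factor NF-Y. RefSeq windows (GRCh38.p14) of 250 bases before to 50 bases after a transcription start were found for 28 of the 32 genes, in 36 windows. ACAT2, FASN, FDFT1 and SQLE were not among them. The letters CCAAT, searched on both strands, were in 23 of the 36 windows (63.9%) and in 34.6% of all 35116 windows. The palindromic E-box CACGTG was in 6 of the 36 (16.7%) and in 7.26% of all. The sterol element TCACNCCAC (N, any base), searched on both strands, was in 1 of the 36, that of SREBF2, and in 1.13% of all. Only this exact sequence was searched, so other forms of the element, or sites outside the windows, would be missed. The stretches below run 5′ to 3′ on the strand of the gene, end before the transcription start and have every match in capitals, where ATTGG is CCAAT on the other strand. In IDI1 a CCAAT and an ATTGG overlap.
HMGCS1, chr5:43313503-43313572, minus strand: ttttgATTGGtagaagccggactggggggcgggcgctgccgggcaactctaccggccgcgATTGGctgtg
IDI1, chr10:1048964-1049023, minus strand: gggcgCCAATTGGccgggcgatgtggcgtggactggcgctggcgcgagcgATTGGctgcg
MSMO1, chr4:165327479-165327644, plus strand: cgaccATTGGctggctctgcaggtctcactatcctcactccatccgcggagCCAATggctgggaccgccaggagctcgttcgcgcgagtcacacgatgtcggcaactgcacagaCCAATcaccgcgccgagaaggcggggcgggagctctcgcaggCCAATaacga
INSIG1, chr7:155297703-155297833, plus strand: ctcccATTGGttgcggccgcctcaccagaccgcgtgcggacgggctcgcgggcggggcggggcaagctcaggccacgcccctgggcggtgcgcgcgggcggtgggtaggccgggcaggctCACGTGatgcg
SREBF2, chr22:41832967-41833008, plus strand: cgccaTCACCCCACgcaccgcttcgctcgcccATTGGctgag
ABCA1, chr9:104928292-104928307, minus strand: ggctcCACGTGctttc
A match is a run of letters, and binding was not measured. SREBF1 had none of the 3 motifs in its windows.

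The first question was what Acetalax did to these genes within 6 hours. Over the 4 pairs of Acetalax-treated and control libraries, HMGCS1, MSMO1 and IDI1 of the sterol branch and the regulator INSIG1 rose, and SREBF1 and ABCA1 fell (edgeR quasi-likelihood test with Benjamini-Hochberg adjustment over 19693 genes). These are 4 of 32 genes higher and 2 of 32 lower, where 2.72% of all genes tested were called higher and 2.27% lower. At an unadjusted p under 0.05, 8 of the 32 were higher and 7 lower, beside 12.5% and 15.5% of all genes. The 4 pairs came from only 2 lines, so these p-values measure the spread between pairs and are too small as statements about lines.

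HMGCS1 makes the HMG-CoA from which mevalonate is built. Its TMM-scaled level went from 120.4 to 298 CPM in MDA-MB468 parental, 78.8 to 123 CPM in MDA-MB468 CE, 95.2 to 169 CPM in BT549 parental and 95.9 to 166 CPM in BT549 CE cells. All 4 treated libraries were above all 4 controls. Its log2 fold change was 0.89 ± 0.12 (SE, 4 pairs; edgeR adjusted p = 0.0295). An opposite-strand gene, ENSG00000261604, overlaps 37.7% of its exon bases (chr5:43289497-43313614, hg19), and whether counting used strand is not given in the sources used here.

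MSMO1, the sterol C4-methyl oxidase, rose by a log2 fold change of 0.72 ± 0.13 (SE; adjusted p = 0.0376). Its levels were 87.1 and 192 CPM in control and treated MDA-MB468 parental cells, 58.8 and 85.6 CPM in MDA-MB468 CE cells, 42.5 and 67.7 CPM in BT549 parental cells and 48.8 and 71.1 CPM in BT549 CE cells. Each treated library lay above its own control, and the treated and control ranges overlapped because the lines began at different levels. IDI1, the isomerase of the isoprenoid unit, rose by 0.59 ± 0.13 (adjusted p = 0.0499). Its log2 ratio was largest in BT549 CE cells, at 0.95 (95% counting interval 0.89 to 1.01), and smallest in MDA-MB468 CE cells, at 0.22 (0.17 to 0.28). The antisense gene IDI2-AS1 overlaps 15% of the exon bases of IDI1 (chr10:1085848-1095110, hg19).

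INSIG1, which retains the SCAP-SREBP complex and is itself a known SREBP target, differed clearly in 3 of the 4 pairs. It went from 65.6 to 148 CPM in MDA-MB468 parental, 65.4 to 170 CPM in BT549 parental and 205 to 438 CPM in BT549 CE cells. In MDA-MB468 CE cells it stayed at 33.1 against 34.3 CPM, a log2 ratio of 0.05 with a counting interval of -0.05 to 0.15. Over the 4 pairs its log2 fold change was 0.93 ± 0.21 (SE; edgeR adjusted p = 0.0465). A difference of that pair from the others was not tested on its own.

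STARD4, a carrier of cholesterol between membranes, was higher in all 4 pairs without passing the adjustment. Its log2 ratios were 0.94 in MDA-MB468 parental, 0.37 in MDA-MB468 CE, 0.15 in BT549 parental and 0.76 in BT549 CE cells (fold change 0.56 ± 0.15 on the log2 scale, adjusted p = 0.0673). SREBF2 was also higher in all 4 pairs, with log2 ratios of 0.23, 0.01, 0.46 and 0.58 in the same order (adjusted p = 0.118). Its ratio of 0.01 in MDA-MB468 CE cells had an interval of -0.03 to 0.04 that includes 0, and this is the same pair in which INSIG1 had its smallest ratio.

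Most steps of the cholesterol pathway moved little. In the sterol branch, 14 of 19 genes had a positive fold change over the 4 pairs. The median was 0.16 on the log2 scale beside -0.04 over all genes tested. Of the 19, 3 passed as higher, beside 2.72% of all genes. MVK, FDFT1, SC5D and ACAT2, respectively mevalonate kinase, squalene synthase, a late desaturase and a cytosolic thiolase, had fold changes between -0.01 and 0.02. DHCR7, the last reductase of cholesterol synthesis, had log2 ratios between 0.17 and 0.25 in all 4 pairs (adjusted p = 0.144), and NSDHL, a C4-demethylation enzyme, had 0.10 to 0.34 (adjusted p = 0.165). FDPS, EBP and MVD were higher in all 4 pairs by 0.02 to 0.37 log2 units, and PMVK was lower in all 4, by -0.42 to -0.01. SQLE, LSS, TM7SF2, HSD17B7 and CYP51A1 changed sign between pairs. CYP51A1, the sterol C14 demethylase, had log2 ratios of 1.10 and 0.55 in MDA-MB468 parental and CE cells and of -0.08 and 0.03 in BT549. Exons of CYP51A1, and 36.4% of the exon bases of EBP, overlap genes annotated on the same strand. Reads in such overlaps may be missing from both rows, so the ratios of CYP51A1 and EBP may rest on part of their reads.

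**Figure D1:**
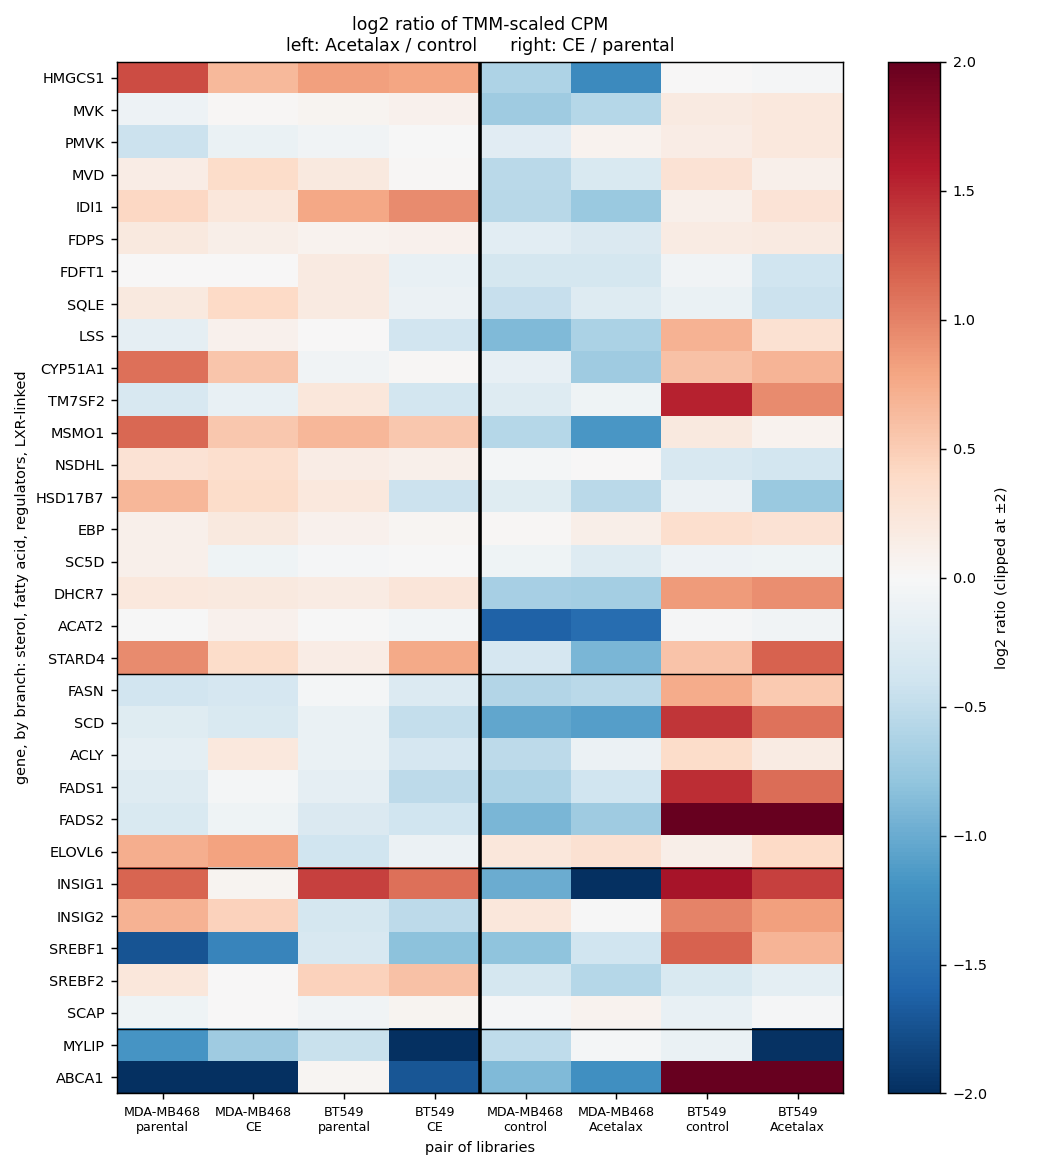
Log2 ratios of TMM-scaled CPM for the 32 genes (rows, by branch) in 8 pairs of libraries (columns): 4 of Acetalax against control, left of the line, and 4 of CE against parental, right of it. The colour is clipped at 2 log2 units either way. HMGCS1, MSMO1, IDI1 and STARD4 are red in all 4 Acetalax columns, and FADS2, SCD and INSIG1 are blue in the MDA-MB468 and red in the BT549 columns of CE against parental.

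Within single pairs, the sterol branch had 14 genes higher and 5 lower in parental MDA-MB468. In its CE derivative 16 were higher and 3 lower. BT549 had 15 higher and 4 lower in parental and 11 higher and 8 lower in CE cells. The median log2 ratio was 0.19, 0.20, 0.15 and 0.03 in this order. The last of these turned to -0.13 when libraries were scaled by their totals, which puts the median of all genes in that pair at -0.21. In BT549 CE cells 4 of the 19 genes were higher by at least 0.5 log2 units and 0 were lower by as much, beside 18.5% and 28.5% of all genes.

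The fatty acid branch went the other way in sign and by small amounts. Of its 6 genes 0 were called, beside 2.72% of all genes called higher and 2.27% lower. At an unadjusted p under 0.05 (edgeR), 4 of 6 were lower, beside 15.5% of all genes. FADS1, FADS2, SCD and FASN were lower in all 4 pairs, as were 18.8% of all genes, and ACLY, which makes cytosolic acetyl-CoA, was lower in 3. SCD, the desaturase that makes monounsaturated fatty acids, went from 1100 to 929 CPM in MDA-MB468 parental, 538 to 434 CPM in MDA-MB468 CE, 1034 to 947 CPM in BT549 parental and 2796 to 2012 CPM in BT549 CE cells (log2 fold change -0.29 ± 0.08, adjusted p = 0.0758). FASN, the fatty acid synthase, had a fold change of -0.26 ± 0.09 (adjusted p = 0.105), and FADS2, the delta-6 desaturase, had -0.28 ± 0.09 (adjusted p = 0.0973). ELOVL6, a fatty acid elongase, had log2 ratios of 0.73 and 0.80 in the MDA-MB468 pairs and of -0.40 and -0.11 in the BT549 pairs.

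SREBF1 fell under Acetalax while SREBF2 did not. It went from 201 to 60.8 CPM in MDA-MB468 parental, 115 to 46.1 CPM in MDA-MB468 CE, 147 to 117 CPM in BT549 parental and 332 to 188 CPM in BT549 CE cells. Its log2 fold change was -1.05 ± 0.21 (SE; edgeR adjusted p = 0.0424), and all 4 pairs were lower. The counts do not separate the SREBP1 isoforms. SCAP was flat, between 70.2 and 78.0 CPM in the 8 libraries.

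The LXR-linked genes were lower too. ABCA1, the cholesterol exporter of the plasma membrane, had 61 control and 7 treated counts in MDA-MB468 parental cells, 31 and 3 counts in MDA-MB468 CE cells and 648 and 166 counts in BT549 CE cells. BT549 parental cells had 1 count in each library, so that pair carried no information. The fold change of ABCA1 was -2.28 ± 0.37 (log2, SE; edgeR adjusted p = 0.0361), and the MDA-MB468 ratios of -3.06 (-4.44 to -1.93) and -3.41 (-5.76 to -1.73) had wide counting intervals. MYLIP, a ubiquitin ligase that removes lipoprotein receptors, was lower in all 4 pairs, by -1.18, -0.71, -0.44 and -2.28 log2 units in MDA-MB468 parental, MDA-MB468 CE, BT549 parental and BT549 CE cells (adjusted p = 0.0592).

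**Figure D2:**
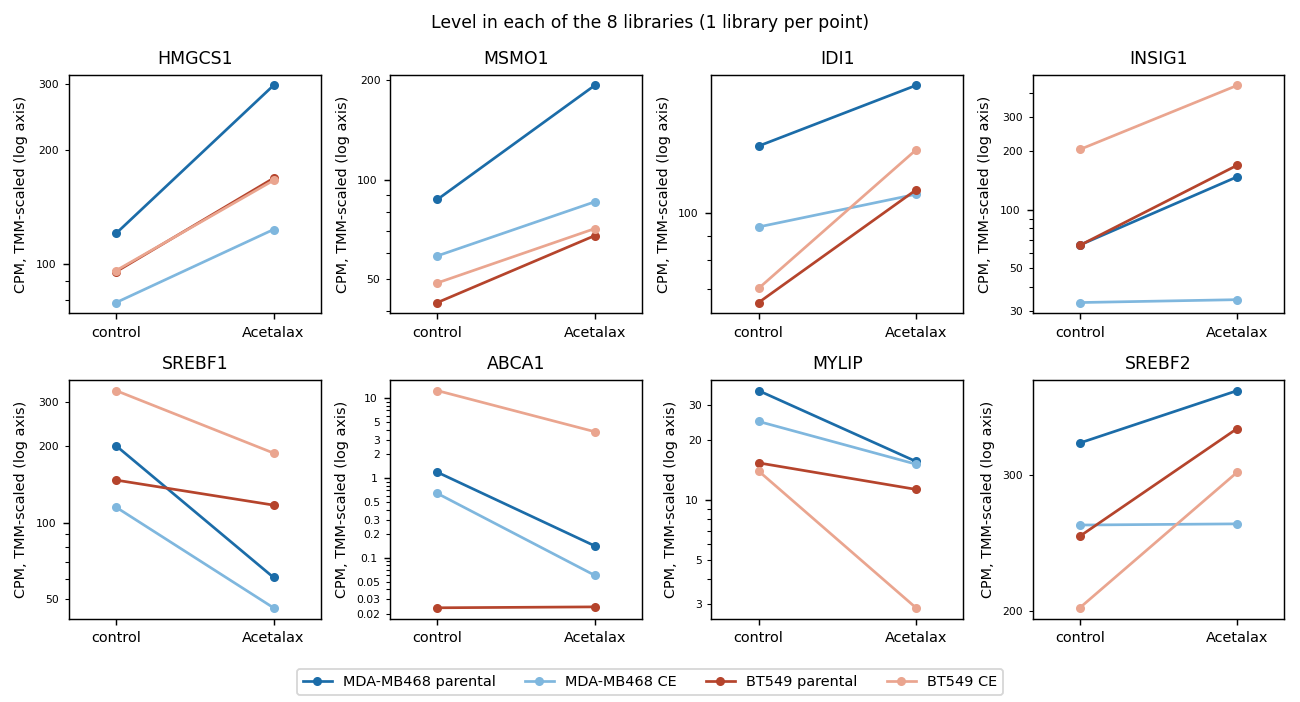
TMM-scaled CPM (log axis, own range in each panel) of 8 genes in control and Acetalax-treated libraries, 1 library per point, with a line joining the pair of each background. HMGCS1 and MSMO1 rise in all 4 backgrounds, INSIG1 stays at 33.1 to 34.3 CPM in MDA-MB468 CE cells, and SREBF1 and MYLIP drop in all 4.

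Counting a consistent direction without a test, 11 of the 32 genes were higher in all 4 pairs and 7 were lower in all 4, beside 15.2% and 18.8% of all genes. With a median of at least 0.5 log2 units as well, 5 genes were higher (HMGCS1, MSMO1, IDI1, STARD4 and INSIG1) and 2 were lower (SREBF1 and MYLIP), beside 6.32% and 8.73%.

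The calls depended on the pairs used. Without the MDA-MB468 parental pair, 0 of the 32 genes were called, and 0 of all genes, while the fold changes of the 6 called genes kept their signs. Without both BT549 pairs 13 of the 32 were called, beside 17.3% of all genes, and without both MDA-MB468 pairs 6, beside 10.4%. Both of these alternatives were chosen after seeing the data. With library totals in place of TMM, IDI1 (adjusted p = 0.0561) and INSIG1 (adjusted p = 0.0537) were no longer called and SCD was (edgeR adjusted p = 0.0493). Separate Acetalax terms for parental and CE cells, fitted together over all 8 libraries, called 0 of 19693 genes each, with 1710 and 2311 at an unadjusted p under 0.05, where 4 of the 32 were higher and 2 lower in parental cells (4.68% and 4% of all genes) and 3 higher and 4 lower in CE cells (5.72% and 6.02% of all).

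The lines were then compared for their response. The BT549 minus the MDA-MB468 Acetalax response was tested with the parental and CE pairs as replicates of a line. Its p-values therefore measure the spread between those pairs. The test called 0 of the 32 genes, beside 0.533% of all genes higher and 1.25% lower (edgeR). At an unadjusted p under 0.05, 4 were higher and 3 lower, beside 6.89% and 10.4% of all. INSIG2, the INSIG1 paralog, came closest. It went from 32.3 to 52.4 and from 37.8 to 51.9 CPM in MDA-MB468 parental and CE cells, and from 7.93 to 6.23 and 15.8 to 11 CPM in BT549 parental and CE cells, a difference of -1.02 ± 0.21 (log2, SE; edgeR adjusted p = 0.0600). ELOVL6 differed by -1.02 ± 0.21 (adjusted p = 0.0626) and SREBF1 by 0.95 ± 0.22 (adjusted p = 0.0802). DESeq2 called all 3 of these, beside 941 of all 19693 genes.

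The wider pathway was read from 4 further lists. Of 12 other SREBP-linked lipid genes, 1 was called over the 4 Acetalax pairs, PANK3, a pantothenate kinase of coenzyme A synthesis, at 0.77 log2 units. Among further LXR genes, ABCG1, a sterol exporter, was lower (edgeR adjusted p = 0.0475). ABCG1 had 271 control and 55 treated counts in MDA-MB468 parental cells and 244 and 57 in MDA-MB468 CE cells, with 0 or 1 count in every BT549 library. None of 9 genes of SREBP processing and none of 8 genes of isoprenoid use was called by edgeR, with 2 and 3 of them at an unadjusted p under 0.05. Of all genes, 2.72% were called higher and 2.27% lower, and 12.5% and 15.5% were so at an unadjusted p under 0.05. NR1H3, which encodes LXR alpha, had log2 ratios of -1.14 to -0.39 and was not called (adjusted p = 0.0555).

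The second question was how CE cells differ from parental cells without drug. In MDA-MB468, 29 of the 32 genes were lower in CE cells and 17 were lower by at least 0.5 log2 units, beside 11% of all genes, with 0 higher by as much, beside 14.2%. In BT549, 23 of the 32 were higher and 13 were higher by at least 0.5, beside 23.8% of all genes, with 0 lower by as much, beside 20.3%. The median log2 ratio of the 32 genes was -0.52 in MDA-MB468 and 0.24 in BT549, where that of all genes was 0 in both. With the lines as replicates, 0 of 18377 genes were called in the 4 control libraries by edgeR, with 610 at an unadjusted p under 0.05 (1.74% of genes higher and 1.58% lower) and 0 of them among the 32. DESeq2 called 50 genes and none of the 32.

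In the fatty acid branch 5 of 6 genes were lower in MDA-MB468 CE cells and all 6 were higher in BT549 CE cells. FADS2 was at 1.00 FPKM in MDA-MB468 parental and 0.529 FPKM in MDA-MB468 CE control cells, but at 22.2 FPKM in BT549 parental and 106 FPKM in BT549 CE control cells. These are log2 ratios of -0.92 (counting interval -1.14 to -0.71) in MDA-MB468 and 2.25 (2.22 to 2.29) in BT549. SCD went from 209.7 to 103 FPKM in MDA-MB468 and from 197 to 533 FPKM in BT549, where it was the most abundant of the 32 genes per length. FADS1, the delta-5 desaturase, lies beside FADS2 on chromosome 11 and shares under 5% of its exon bases with it. It had log2 ratios of -0.62 and 1.47. FASN had -0.58 and 0.75.

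The 6 genes of the fatty acid branch together took 0.319% of all counts in MDA-MB468 parental and 0.199% in MDA-MB468 CE controls. They took 0.222% in BT549 parental and 0.527% in BT549 CE controls. The sterol branch took 0.262%, 0.195%, 0.144% and 0.155% of counts in the same order.

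In the sterol branch 18 of 19 genes were lower in MDA-MB468 CE control cells. ACAT2 had the widest gap, 36.9 FPKM in parental and 12.1 FPKM in CE cells (log2 ratio -1.61, interval -1.69 to -1.53), and in BT549 it was at 21.5 and 21.1 FPKM. Opposite-strand genes, among them TCP1 and SOD2, overlap 26% of its exon bases. In BT549 CE cells TM7SF2, a sterol C14 reductase, went from 119 to 428 counts (1.54, 1.24 to 1.85), DHCR7 had a log2 ratio of 0.86 and LSS, the lanosterol synthase, 0.69. HMGCS1, which had the smallest adjusted p of the 32 genes under Acetalax, had 0.01 (-0.05 to 0.07) there.

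Among the regulators, INSIG1 and SREBF1 followed the fatty acid genes. INSIG1 was at 65.6 CPM in MDA-MB468 parental and 33.1 CPM in CE controls, and at 65.4 CPM in BT549 parental and 205 CPM in CE controls. SREBF1 had log2 ratios of -0.81 (-0.85 to -0.76) in MDA-MB468 and 1.17 (1.13 to 1.22) in BT549. SREBF2 was lower in CE cells of both lines, by -0.35 and -0.31, and SCAP by -0.03 and -0.15. ABCA1 went from 61 to 31 counts in MDA-MB468 and from 1 to 648 counts in BT549, a log2 ratio of 9.03 with a counting interval of 6.55 to 14.34.

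**Figure D3:**
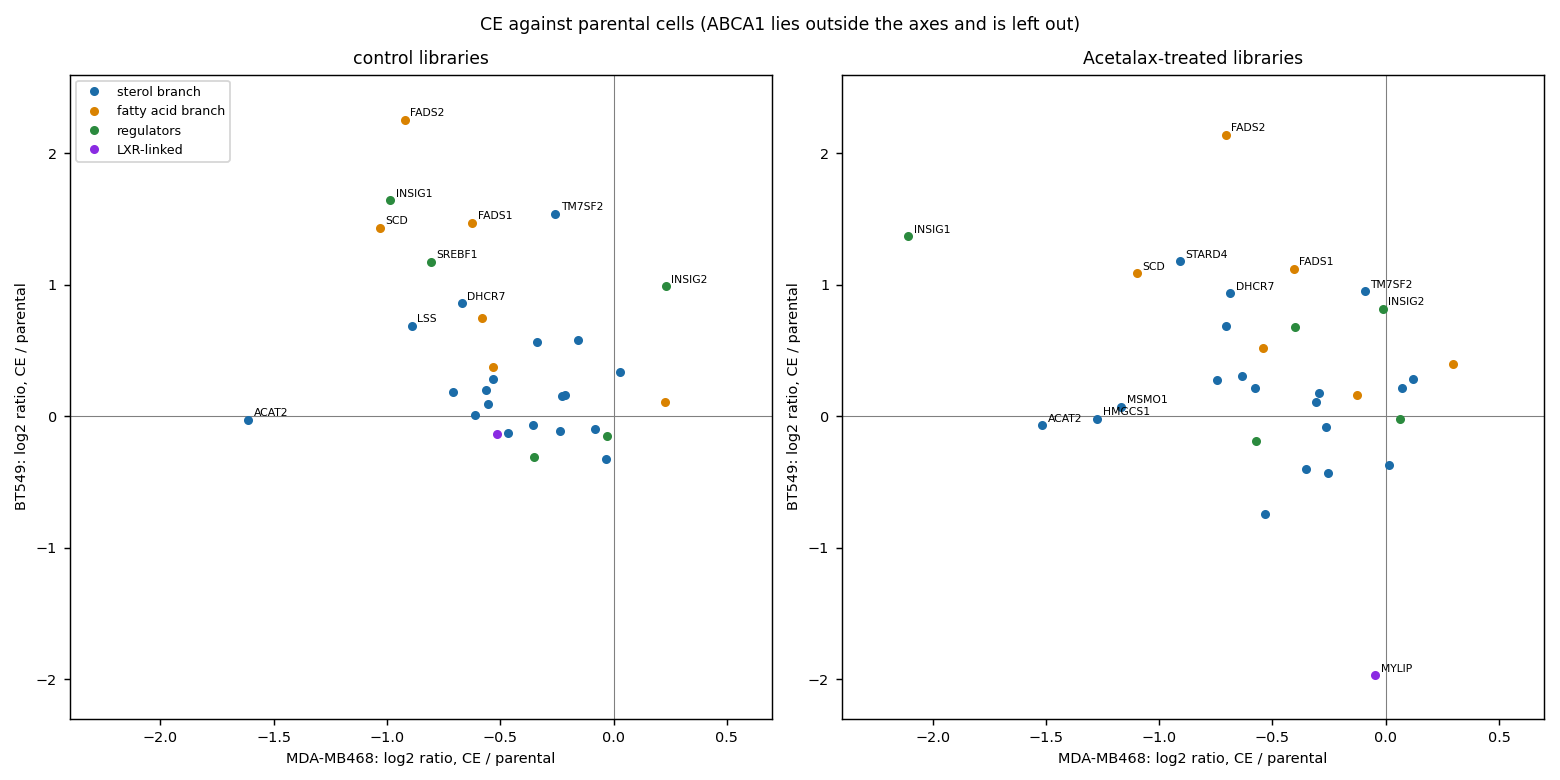
Log2 ratio of CE against parental cells in MDA-MB468 (x axis) and in BT549 (y axis), 1 point per gene coloured by branch, in control libraries (left) and Acetalax-treated libraries (right). Most points lie left of 0. FADS2, SCD, INSIG1 and FADS1 lie in the upper left of both panels.

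In total 9 of the 32 genes were lower by at least 0.5 log2 units in MDA-MB468 CE and higher by at least 0.5 in BT549 CE control cells, beside 3.22% of all genes. The treated libraries of the same cells, an alternative added after seeing the data, kept 6 of them past 0.5 in all 4 pairs, beside 0.95% of all genes. These were ABCA1, DHCR7, FADS2, FASN, INSIG1 and SCD. The other 3 were FADS1, LSS and SREBF1, whose signs were the same in the treated pairs.

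That the lines differed in CE against parental was tested over all 8 libraries, with control and treated pairs as replicates of a line. This test too was added after seeing the data. It called 18 of the 32 genes higher in BT549 than in MDA-MB468 and 0 lower, beside 7.3% and 4.91% of all genes (edgeR). FADS2 differed by 3.01 ± 0.15 (log2, SE; adjusted p = 2.81e-05), SCD by 2.33 ± 0.13 (adjusted p = 5.38e-05), INSIG1 by 3.05 ± 0.34 (adjusted p = 0.0012) and SREBF1 by 1.53 ± 0.22 (adjusted p = 0.00387). Control and treated cells of a line share 1 CE derivation, so the test covers the spread between treatments and not between independent CE derivations.

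The called genes were 10 of 19 in the sterol branch, 4 of 6 in the fatty acid branch, 3 of 5 regulators and 1 of 2 LXR-linked genes. For ACAT2 (1.52 ± 0.16, adjusted p = 0.00107), MSMO1, HMGCS1, MVK, IDI1 and MVD the difference came mostly from MDA-MB468, since their BT549 log2 ratios in control cells lay between -0.03 and 0.28. For TM7SF2 and INSIG2 it came mostly from BT549, with ratios of 1.54 and 0.99 beside -0.26 and 0.23 in MDA-MB468. Without the MDA-MB468 Acetalax pair the count was 12, and MSMO1, IDI1, MVK, HMGCS1, INSIG2 and MVD were no longer called. The 14 genes not called included SCAP, SQLE, FDFT1 and SC5D, with differences of -0.10 to 0.12 log2 units.

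**Figure D4:**
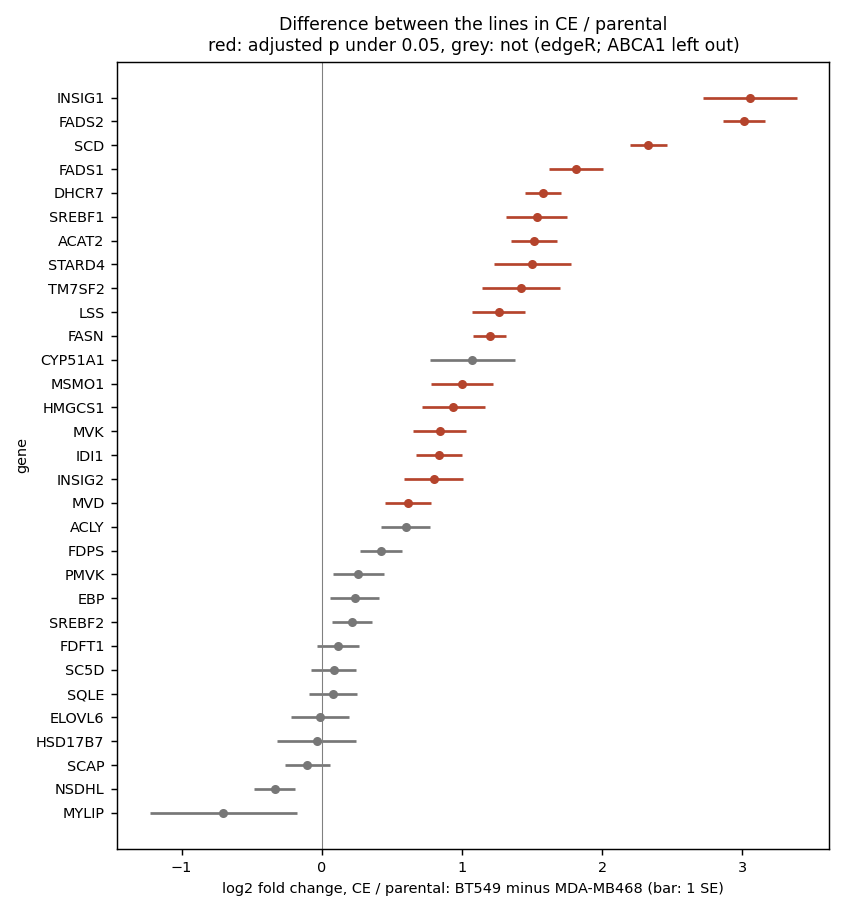
Difference between the lines in the log2 fold change of CE against parental, BT549 minus MDA-MB468 (x axis; bar, 1 SE; edgeR, 8 libraries), for 31 genes. Red points have an adjusted p under 0.05. INSIG1, FADS2 and SCD lie past 2 log2 units, and 5 genes, from ELOVL6 down to MYLIP, lie at or below 0.

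The lines also began from different levels. Over the 4 conditions, SQLE (squalene epoxidase), FADS1, FADS2 and ELOVL6 were higher in BT549 than in MDA-MB468 and 12 of the 32 genes were lower, beside 27.3% and 29.5% of all genes called. ELOVL6 was at 0.302 to 0.615 FPKM in MDA-MB468 and at 7.03 to 10.0 FPKM in BT549 libraries (log2 difference 4.36 ± 0.28, edgeR adjusted p = 6.8e-05). SC5D was at 13.6 to 16.3 FPKM in MDA-MB468 and 3.54 to 3.83 FPKM in BT549 (-2.02 ± 0.12, adjusted p = 5.63e-05). Neither gene's ranges overlapped between the lines. Across the 8 libraries SCAP varied least, by 1.11-fold from lowest to highest, and among genes above 0.1 FPKM in every library FADS2 varied most, by 213.6-fold.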

How the data were processed

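PolyA-selected, directional libraries of 8 conditions were sequenced. The authors aligned reads to hg19 with STAR (2.7.11b in the submitters' processing notes) and deposited raw counts per gene from its gene counting option. The annotation and the strand setting are not given in the sources used here. Of 58154 rows, 2475 repeated an identifier, and the first of each was kept. CPM and FPKM (exon bases of the hg19 annotation) were computed from these counts with TMM scaling, and with library totals for markers. edgeR 4.0.16 (R 4.3.3; TMM, filterByExpr, quasi-likelihood test) was fitted to all genes, with line and state as block for Acetalax, and Benjamini-Hochberg adjustment. The SE given is the size of the log2 fold change divided by the square root of the test's F statistic. Log2 ratios within a pair have exact conditional binomial 95% intervals, which cover counting error only. All-gene ratios used a pseudocount of 0.01 CPM. A gene near 0 counts in a pair can pass 0.5 log2 units by 1 count, so the all-gene shares past 0.5 include counting noise. Nothing states that the libraries were separate cultures, so p-values measure the spread between these libraries. Treated and control libraries pair by cell background. Their deviations from the treatment means correlated by 0.927 to 0.953 in the 4 backgrounds. Those means span both lines, so the correlations include the line difference. They cannot show a pairing of parental or CE cells within a line. All genes of the list are accounted for. Levels, counts or log2 ratios of the Acetalax pairs were given for regulators, genes called over these pairs and those with 1 direction in all 4 and a median of at least 0.5. For IDI1 only the largest and smallest ratio were given, and for SCAP the range. Other genes called in the test of CE against parental between lines have at least their difference. Members and lists were chosen with earlier results of these data known. Alternatives were library totals, DESeq2 1.42.0, no expression filter, fits without the block and fits leaving out pairs. 1 result of the LXR list is not reported here.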

Additional observations from a re-analysis of the deposited data

Results flagged for a closer look

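For 18 genes the test over all 8 libraries found that CE against parental differed between the lines (edgeR, adjusted p under 0.05), always higher in BT549 than in MDA-MB468. The differences on the log2 scale were 9.17 for ABCA1, 3.05 for INSIG1, 3.01 for FADS2, 2.33 for SCD, 1.81 for FADS1, 1.58 for DHCR7, 1.53 for SREBF1, 1.52 for ACAT2 and 1.50 for STARD4. They were 1.42 for TM7SF2, 1.26 for LSS, 1.20 for FASN, 1.00 for MSMO1, 0.94 for HMGCS1, 0.84 for MVK, 0.83 for IDI1, 0.80 for INSIG2 and 0.62 for MVD. The value of ABCA1 rests on 1 count in each BT549 parental library and depends on the prior count of the fit, so it is no bound.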

How the results depend on the processing

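Over the 4 Acetalax pairs 6 of the 32 genes were called, beside 984 of all 19693 genes. Without the replicate block of cell background 0 were called, with library totals 5 (IDI1 and INSIG1 lost, SCD gained), by DESeq2 9 and with all genes of at least 1 count 10. Of all genes, these settings called 0 of 17811, 1058 of 19693, 2930 of 19693 and 3585 of 37154 in this order. Leaving out 1 pair gave 0 to 5, beside 0 to 554 of all genes. Leaving out both pairs of a line gave 6 to 13, beside 10.4% and 17.3% of all genes, the highest being without BT549. Counts summed per line, an alternative added after seeing the data, gave 4, beside 323 of 20794 genes. The difference between the CE and parental responses called 0 of 19693 genes by edgeR, with 91 at an unadjusted p under 0.05 and the smallest adjusted p at 1. In parental cells 0 were called, 3 by DESeq2, 5 with no filter and 0 to 2 with a pair left out. In CE cells 0 were called, 1 by DESeq2, 4 with no filter and 0 to 1 with a pair left out. For the difference between lines in the Acetalax response 0 were called, 2 with library totals, 3 by DESeq2, 3 with no filter and 0 to 2 with a pair left out. For CE against parental between lines, 18 were called and the alternatives gave 12 to 20. For these last 4 comparisons, in the order given, edgeR called 0, 0, 351 and 2404 of all 19693 genes. DESeq2 called 90, 357, 941 and 2761 of them, and the fit with no filter 643, 1080, 1632 and 3533 of 37154. The sterol branch median in BT549 CE cells reversed from 0.03 to -0.13 with library totals and to -0.11 as a difference of log2(FPKM + 1). In BT549 parental cells it went from 0.15 to 0.070 and 0.065. The fatty acid median in BT549 CE cells went from -0.37 to -0.53 and -0.52. The causes were not tested. With 1 library per condition, no single pair has a replicate check.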
